A study of Mus musculus with 2 samples.

Results

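The genes described here are 8 mouse genes for RNA-binding proteins that act on splicing, RNA editing, 3′ end formation or back-splicing: Mbnl1, Mbnl2, Qk, Adar, Esrp1, Rbm4, Cpsf6 and Rbm39. They were taken as every circular RNA (circRNA) whose host gene is listed under exactly 1 of these names, which gave 72 of the 31496 circRNAs listed over both libraries, and 61 of the 26265 with a read across the back-splice junction. The study sorted intestinal cells of Lgr5GFP-CreERT2 reporter mice aged 2 months by flow cytometry into a fraction typed as Lgr5+ ISC (intestinal stem cells) and a fraction typed as Lgr5- non-ISC. All mice carry the reporter allele, and how many animals stand behind a library is not stated in the labels. Each fraction gave 1 library of total RNA, depleted of ribosomal RNA and digested with RNase R, which degrades linear RNA. Each group is thus 1 library, so differences could not be set against a spread between replicates, and none is tested.

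Junction reads came to 156582 (labelled ISC) and 76331 (labelled non-ISC). The labelled cell types were checked against marker genes. Lgr5 itself had 0 junction reads against 7, too few for a call. The list of Lgr5 stem cell markers summed to 38 reads against 173. Of its 5 genes with at least 10 reads, 4 were lower, and Znrf3 (23 against 12) was not called. Wherever a pair of values is given, the library labelled ISC comes first. Of 11 markers of intestinal epithelium with a circRNA, 9 were at 0 in the library labelled ISC, Epcam and Cdh1 among them, and the list summed to 6 reads against 543. All 10 lymphocyte markers with at least 10 reads were higher there, and that list summed to 7078 reads against 127, led by Satb1, Bcl11b and Themis. The markers thus go against the label ISC, so the groups are named by their labels, and every direction is between libraries as labelled. The part that other cell types had in the results was not tested. Each ratio divides a share of junction reads in the library labelled ISC by the same share in the other, and its 95% exact interval covers counting error only. A gene or circRNA is called only with 10 reads or more in all, a ratio of 2 or more one way or the other, and an interval that leaves out 1.

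In back-splicing, the end of an exon is joined to the start of the same or an earlier exon, and proteins that bind the flanking introns can favour or hinder that step. Quaking, encoded by Qk, binds introns and promotes back-splicing, muscleblind proteins bind their own pre-mRNA and are known for circRNAs made from their own genes, and ADAR1, encoded by Adar, edits paired intron repeats and is known to lower circRNA formation. Esrp1 is a splicing regulator of epithelial cells. Rbm4 and Rbm39 encode regulators of exon choice, and Cpsf6 encodes a subunit of cleavage factor I, which acts in choosing the site where the RNA is cut and polyadenylated. The reads measured here come from circRNAs made from these genes, and they do not measure the proteins or the linear mRNAs.

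The junctions that the results turn on are printed as they read across the back-splice, from GENCODE M21 transcripts. The end of the last exon of the circle is in lower case and the start of its first exon is in capitals, so that the change of case marks the back-splice. Junctions with coding sequence on both sides are shown with 30 bases a side and the others with 15.
Rbm4, upstream exon to exon 2: acacagagtttcaagGTAATTGGCGTTCCG
Rbm4, upstream exon to exon 3: cttttaaagtttgagGTAATTGGCGTTCCG
Rbm4, exon 3 to an end inside the last exon: ttgggaaaaatgaagGCAAACGAATGCACG
Cpsf6, exons 2 to 3: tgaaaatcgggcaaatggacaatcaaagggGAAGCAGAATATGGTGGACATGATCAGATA
Mbnl1, exons 3 to 4: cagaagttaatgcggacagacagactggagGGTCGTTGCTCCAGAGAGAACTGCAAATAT
Mbnl1, exons 5 to 6: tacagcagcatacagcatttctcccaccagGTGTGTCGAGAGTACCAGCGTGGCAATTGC
Mbnl2, exon 2: tttgattccctcaagAATTTAAAGAGGACG
Esrp1, exons 4 to 9: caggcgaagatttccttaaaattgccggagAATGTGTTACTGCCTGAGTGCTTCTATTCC
Esrp1, exons 10 to 13: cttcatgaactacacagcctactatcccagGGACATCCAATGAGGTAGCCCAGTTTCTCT
The first pair for Rbm4 shares the bases in capitals, since both circles start at the same acceptor, while the Mbnl1 pair shares no exon.

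Over the 8 genes there were 1060 junction reads (0.677% of the library) labelled ISC and 1020 (1.34%) labelled non-ISC. Rbm4 held 58.1% of the former and 79.7% of the latter. The summed ratio was 0.507 (0.464 to 0.553), and without Rbm4 it was 1.05 (0.885 to 1.24). Of the 7 genes with at least 10 reads, 2 were higher (Cpsf6 and Qk), 2 were lower (Esrp1 and Rbm4) and 3 were not called in the library labelled ISC. Over all 2920 host genes with that many reads, 49.4% were called, 26.7% higher and 22.7% lower, so the share called among the 7 was near the background. In such bulk libraries fewer cells of a type and less circRNA per cell cannot be told apart. The median log2 ratio of the 7 was -0.08, against 0.16 over all host genes. Scaled to the library totals that the deposited RPM values imply, every log2 ratio moves up by 1.49, and the split becomes 5 higher and 1 lower for the regulators and 58.8% and 11.1% for all host genes.

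**Figure D1:**
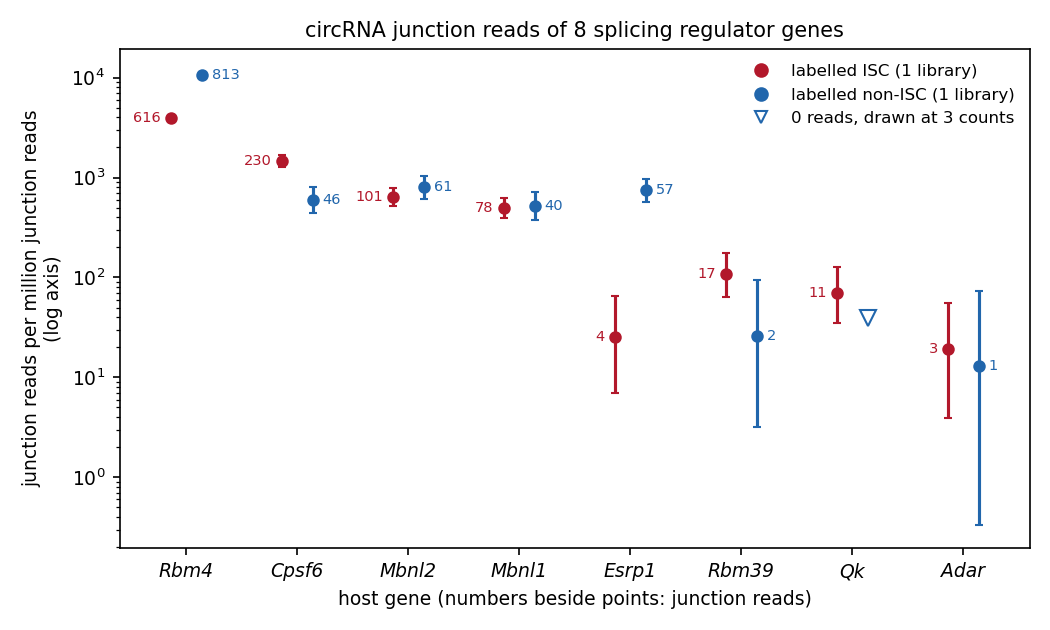
Junction reads per 1000000 junction reads (log axis) for each of the 8 host genes in the library labelled ISC (red) and the library labelled non-ISC (blue), with 95% Poisson intervals for counting error and the junction reads beside each point. Esrp1 has 4 reads against 57 and Cpsf6 230 against 46, while Mbnl1 and Mbnl2 have overlapping intervals.

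Each circRNA has 1 junction, so junction reads per 1000000 junction reads were set side by side between genes without a correction for length. Whether the size of a circle affects its reads was not tested. In the library labelled ISC the levels ran from Rbm4 (3934) through Cpsf6 (1469), Mbnl2 (645), Mbnl1 (498), Rbm39 (109), Qk (70.3) and Esrp1 (25.5) to Adar (19.2). There Rbm4, Cpsf6 and Mbnl2 had separate intervals, while Mbnl2 and Mbnl1, and each neighbouring pair from Rbm39 down, had overlapping ones. In the library labelled non-ISC the order was Rbm4 (10651), Mbnl2 (799), Esrp1 (747), Cpsf6 (603), Mbnl1 (524), Rbm39 (26.2), Adar (13.1) and Qk (0). The neighbours from Mbnl2 to Mbnl1 in that order had overlapping intervals, as did Rbm39, Adar and Qk. These levels count circRNAs under each gene's own name. By position Rbm39 stood at 837 and 197. Rbm4 ranked 20 and 4 among all host genes of the respective libraries.

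**Figure D2:**
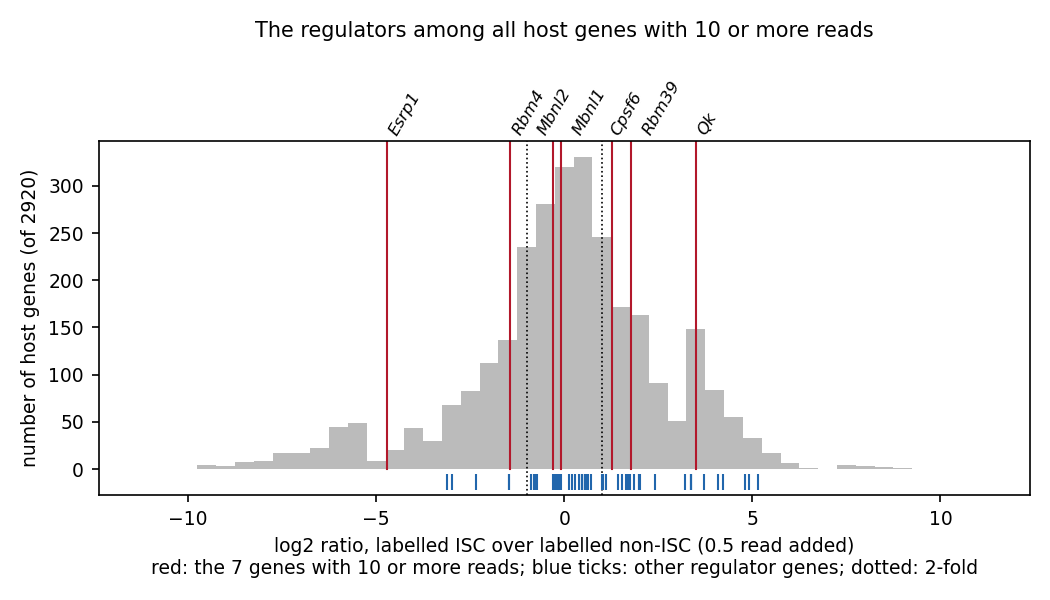
Histogram of the log2 ratio (labelled ISC against labelled non-ISC, 0.5 read added) over the 2920 host genes with at least 10 reads, with the 7 regulators (red lines) and the other regulator genes of the lists (blue ticks). Esrp1 sits at -4.71, Rbm4 at -1.44, Mbnl2 at -0.31, Mbnl1 at -0.08, Cpsf6 at 1.27, Rbm39 at 1.77 and Qk at 3.49.

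Rbm4, whose protein regulates alternative exons and translation, gave the most abundant circRNAs of the group. The gene had 616 reads labelled ISC and 813 labelled non-ISC, a ratio of 0.369 (0.332 to 0.411). It was called lower, but with library totals the ratio was 1.04 (not called). The annotated gene lies on the minus strand (chr19:4784293-4793901, GRCm38). Its leading circRNA, at chr19:4792398-4794009, had 477 reads against 583, the largest count of any circRNA of the 8 genes in each library. Its end is that of Rbm4 exon 2, which holds the start codon and is also an exon of a Gm21992 transcript. Its start lies 108 nt upstream of the annotated start of Rbm4, at an acceptor that GENCODE M21 annotates only in Gm21992. Gm21992 is a locus on the same strand (chr19:4742913-4811612) whose transcripts begin inside the neighbouring gene Rbm14, most of them in its first exon, and run on into or past Rbm4. Both ends are thus annotated in Gm21992 and 1 of them in Rbm4, but no single transcript of the annotation has both. Whether the host is Rbm4 or Gm21992 was not settled, and the reads and ranks given for Rbm4 follow the name in the files. The exon behind the acceptor is annotated with 3 lengths, 84, 194 and 338 nt, so that with exon 2 of 423 nt the spliced circle would measure 507, 617 or 761 nt. The junction reads do not tell these apart.

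The upstream acceptor carried most Rbm4 reads in both libraries. It was used by 4 circRNAs with 538 of the 616 reads labelled ISC (87.3%, 84.5 to 89.9) and 775 of the 813 labelled non-ISC (95.3%, 93.6 to 96.7). Their ratio was 0.338 (0.303 to 0.378). The 3 circRNAs that lie inside the annotated Rbm4 gene had 68 reads against 34 (ratio 0.975, 0.637 to 1.52). The low ratio of the gene was that of the circles from the upstream acceptor, and with host genes taken by position Rbm4 was no longer called. Circles named Rbm14 had 8 reads in each library, of which 2 in each ran from Rbm14 to the end of Rbm4 exon 2.

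**Figure D3:**
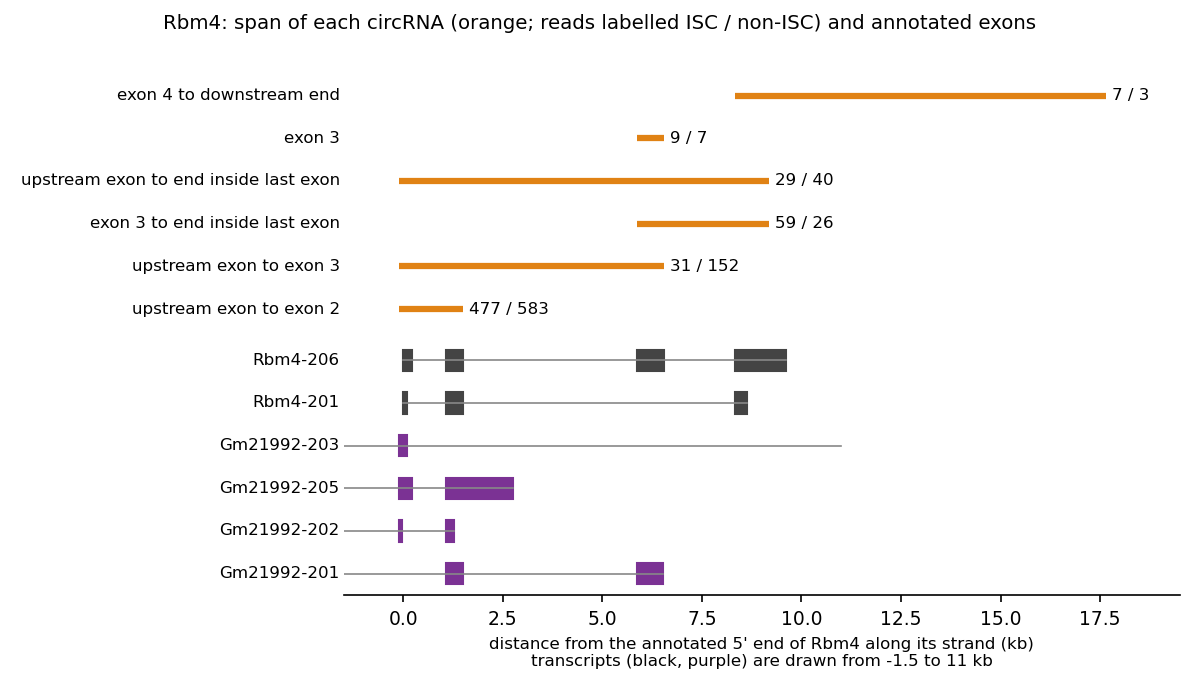
Span of each Rbm4 circRNA with at least 10 reads (orange, reads labelled ISC / labelled non-ISC) above exons of Rbm4 (black) and Gm21992 (purple), by distance in kb from the annotated 5′ end of Rbm4 along its strand. The circRNAs with 477 / 583, 31 / 152 and 29 / 40 reads start left of the first Rbm4 exon, at the left edge of a Gm21992 exon.

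The Rbm4 circRNAs did not share 1 ratio. The circle from the upstream acceptor to the end of exon 3 (chr19:4787361-4794009) had 31 reads against 152, a ratio of 0.0994 (0.0653 to 0.147). Its share of all Rbm4 reads was 5.03% (3.44 to 7.07) against 18.7% (16.1 to 21.5). A circle from the start of exon 3 to an end inside the last exon (chr19:4784724-4788042) had 59 reads against 26, a ratio of 1.11 (0.686 to 1.83). Its share was 9.58% (7.37 to 12.2) against 3.20% (2.10 to 4.65), so 1 of these circles took a smaller and the other a larger part of the gene in the library labelled ISC, each with separate intervals. The end at 4784724 lies inside exon 4 of Rbm4-206, outside coding sequence, and is no annotated exon end. It was also joined to the upstream acceptor (chr19:4784724-4794009), with 29 reads against 40 (ratio 0.353, 0.211 to 0.584). The circle of exon 3 alone had 9 reads against 7, and one from exon 4 to an end 8050 nt beyond the gene had 7 against 3. Neither of these was called.

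Cpsf6 had more circRNA in the library labelled ISC. It (minus strand, chr10:117344673-117380015) had 230 reads against 46, a ratio of 2.44 (1.77 to 3.42), on 9 and 6 circRNAs. The coding exons 2 to 3 made its leading circle in both libraries (chr10:117366081-117367988, 314 nt spliced), with 135 reads against 32 and a ratio of 2.06 (1.39 to 3.13). The circle of exons 2 to 9 (chr10:117355935-117367988) had 58 reads against 8, a ratio of 3.53 (1.68 to 8.57). Both start at the acceptor of exon 2, which 204 of 230 reads labelled ISC used (88.7%, 83.9 to 92.5) and 42 of 46 labelled non-ISC (91.3%, 79.2 to 97.6). A circle from exon 2 to an end inside the last, non-coding exon (chr10:117349311-117367988) had 11 reads against 2, and exons 7 to 9 had 9 against 1 (chr10:117355935-117360555). With the deposited count column in place of junction reads the gene had 268 against 46, a ratio of 1.74, and was not called. No share of a Cpsf6 circle had separate intervals between the libraries.

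Esrp1 circRNAs were nearly absent from the library labelled ISC. The gene (minus strand, chr4:11331933-11386783) had 4 reads there and 57 in the library labelled non-ISC, a ratio of 0.0342 (0.00901 to 0.0925), and it was called lower with library totals too (0.0964). The circle of exons 4 to 9 (chr4:11365004-11379405) had 2 reads against 19 (ratio 0.0513, 0.00580 to 0.213). The circle of exons 13 to 15 (chr4:11338722-11353463) had 18 reads and the circle of exons 10 to 13 (chr4:11353295-11361255) 11 reads in the library labelled non-ISC. Neither is listed in the other library, and since an unlisted circRNA need not have had 0 reads, no fold is given for them. The 2 Esrp1 circRNAs with reads in both libraries had a ratio of 0.0848 over each library's junction reads. The reads were spread over 7 circRNAs in the library labelled non-ISC, of which 4 ended at exon 13 (19 of 57 reads). The epithelial marker list given above, at 6 reads against 543, was low in the same library as Esrp1. Rbm47, another RNA-binding protein gene of epithelium, had 2 reads against 7, below the minimum for a call.

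Mbnl1 and Mbnl2 are paralogous muscleblind genes, and neither was called as a gene. Mbnl1 (plus strand, chr3:60472830-60629750) had 78 reads against 40, a ratio of 0.951 (0.641 to 1.43), and Mbnl2 (plus strand, chr14:120275669-120431697) had 101 against 61, a ratio of 0.807 (0.582 to 1.13). With library totals the ratios were 2.68 and 2.27, and both were called higher. With the deposited count column they were 6.74 (higher) and 0.475 (lower), so neither gene has a direction that holds across these choices. The genes differed in how the reads were spread. Of Mbnl2 reads, 96 of 101 labelled ISC (95.0%, 88.8 to 98.4) and 61 of 61 labelled non-ISC were on exon 2 alone (chr14:120324794-120325412, 619 nt). Mbnl1 reads were spread over 16 circRNAs labelled ISC and 5 labelled non-ISC, of which 3 had at least 10 reads in all. The library labelled ISC had more Mbnl1 reads, so 16 and 5 are not counts at equal depth.

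Within Mbnl1 the circles of exons 3 to 4 and of exons 5 to 6 took different shares in the libraries. The circle of exons 3 to 4 (chr3:60595594-60603894) had 18 reads against 28 (ratio 0.313, 0.163 to 0.587), which is 23.1% (14.3 to 34.0) against 70.0% (53.5 to 83.4) of Mbnl1 reads. The circle of exons 5 to 6 (chr3:60613263-60615773) had 20 reads in the library labelled ISC and is not listed in the other, where the gene had 40 reads. In the library labelled ISC the shares of these circles, 25.6% (16.4 to 36.8) for exons 5 to 6 and 23.1% for exons 3 to 4, overlap, so neither leads there beyond counting error. Exons 3 to 5 (chr3:60595594-60613520) had 9 reads against 7. Together the circles that start at exon 3 had 27 reads against 37, or 34.6% (24.2 to 46.2) against 92.5% (79.6 to 98.4) of the gene. Over circRNAs with junction reads in both libraries the Mbnl1 ratio was 0.406 (lower). The deposited count column gives 2529 against 112, and 1554 of the former stand on 1 circRNA with 3 junction reads (chr3:60546946-60615773). Rbm4, Cpsf6 and Mbnl2 each had the same leading circRNA in both libraries.

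**Figure D4:**
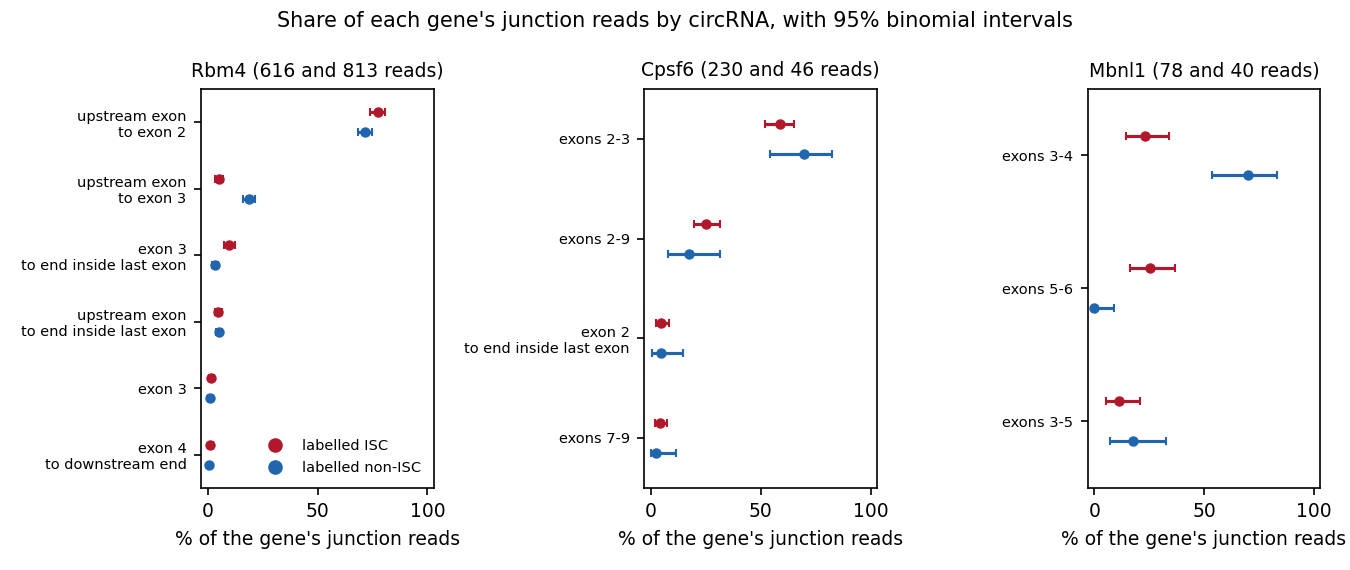
Share of each gene's junction reads (%) held by its circRNAs with at least 10 reads, for Rbm4, Cpsf6 and Mbnl1, in the library labelled ISC (red) and the library labelled non-ISC (blue), with 95% exact binomial intervals. Mbnl1 exons 3-4 stand at 23.1% against 70.0%, and the Rbm4 circle from the upstream exon to exon 3 at 5.03% against 18.7%.

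Exon 2 of each muscleblind gene holds the start codon and 174 nt of coding sequence behind a non-coding stretch, and both genes gave a circle of that exon alone. The Mbnl1 one (chr3:60528756-60529804, 1049 nt) had 5 reads labelled ISC and is not listed in the other library, against 96 and 61 for Mbnl2. The coding parts are printed with the bases that differ between the paralogs in capitals.
Mbnl1 (chr3:60529631-60529804): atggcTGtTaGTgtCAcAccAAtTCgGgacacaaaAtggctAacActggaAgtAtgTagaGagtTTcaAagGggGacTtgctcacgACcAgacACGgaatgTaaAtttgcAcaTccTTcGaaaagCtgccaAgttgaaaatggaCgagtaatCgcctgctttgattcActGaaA
Mbnl2 (chr14:120325239-120325412): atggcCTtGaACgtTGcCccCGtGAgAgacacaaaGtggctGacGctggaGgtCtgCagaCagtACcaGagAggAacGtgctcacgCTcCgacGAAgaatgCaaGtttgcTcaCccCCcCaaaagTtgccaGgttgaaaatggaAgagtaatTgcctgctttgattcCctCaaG
Without gaps, 128 of 174 bases were the same (73.6%), and 34 of the 46 differences fell on the third base of a codon.

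Spliced circles with at least 10 reads and both ends in 1 coding transcript were searched on the transcribed strand for letters that these proteins are known to bind. Of the Rbm4 circles only exon 3 was among them, so the leading circle and the others from the upstream acceptor were not searched. The Rbm4 and Cpsf6 circles with an end inside the last exon were not searched either. The letters were ACTAAC or ACTAAT for Quaking and GCTTGC or TGCTTG for muscleblind, the last pair of which can overlap. GGTGG was searched for Esrp proteins as well. The Mbnl2 exon 2 circle held 3 muscleblind matches in 2 separate stretches and 1 Quaking match. Of 847 circles with 80 to 125% of its length and at least 10 reads, itself among them, 24.0% held a muscleblind match and 10.2% a Quaking match. At least as many separate stretches were held by 3.07%, a share worked out for this circle only and no measure of how rare it is. On the other strand it held none of either, against 40.0% and 7.44%. None of the 3 Mbnl1 circles with at least 10 reads held a match on the transcribed strand, against 12.9% to 23.5% (muscleblind) and 7.46% to 10.7% (Quaking) of circles of like length. The Mbnl2 circle held no GGTGG, whereas 55.7% of circles of like length held it. Among the circles searched, the Quaking letters were found once more, in Cpsf6 exons 2 to 9 (22.4% of 85 like circles). Muscleblind letters were also found once each in Esrp1 exons 10 to 13 (29.2% of 479) and in Rbm4 exon 3 (24.2% of 751). GGTGG was found 4 times in Cpsf6 exons 2 to 9 (77.6%), 2 times in Cpsf6 exons 2 to 3 (34.0% of 1231) and 1 time each in Esrp1 exons 4 to 9 (51.0% of 958) and 10 to 13 (63.0%). A match is a description of these letters and shows no binding.

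Qk, Rbm39 and Adar had few reads under their own names. Qk (minus strand, chr17:10202601-10319854) had 11 reads on 4 circRNAs labelled ISC and 0 labelled non-ISC, where its 2 entries had no junction read. Of the 4, only the circle of exons 2 to 4 is listed in the library labelled non-ISC, so the 0 there rests in part on missing entries. The interval of the ratio has a lower limit of 1.22. With a floor of 3 counts in place of 0 the ratio is 1.79, which is no confidence limit. Qk is called because a ratio over 0 reads passes the rule of 2 or more and the interval leaves out 1, although 1.22 and 1.79 are under 2. Its largest circles, of exons 3 to 4 (chr17:10238893-10274063) and exons 2 to 4 (chr17:10238893-10282981), had 4 reads each. With 11 reads the gene just passed the minimum, and it was not called when reads were halved, as if both mates of a read pair had been counted. Adar (plus strand, chr3:89715022-89753446) had 1 circRNA in each library, with 3 reads for exons 3 to 6 and 1 read for exons 3 to 12, too few for a call.

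Rbm39 (minus strand, chr2:156147239-156180238), whose protein is a splicing factor and coactivator, had 17 reads on 5 circRNAs against 2 on 1, a ratio of 4.14 (0.984 to 37.0) that was not called. Most circRNA reads inside the gene stood under other names. The files place 6 further circRNAs there under 2 FANTOM transcript names, with 114 reads against 13, a ratio of 4.27 (2.40 to 8.27). The largest, at chr2:156177633-156178952, had 76 reads against 13 (ratio 2.85, 1.57 to 5.60), and both its ends are ends of Rbm39 exons. By position the gene had 131 reads against 15, a ratio of 4.26 (2.49 to 7.82), which was called higher. For Mbnl1 the same step added 3 reads against 0, and for the other genes none.

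**Figure D5:**
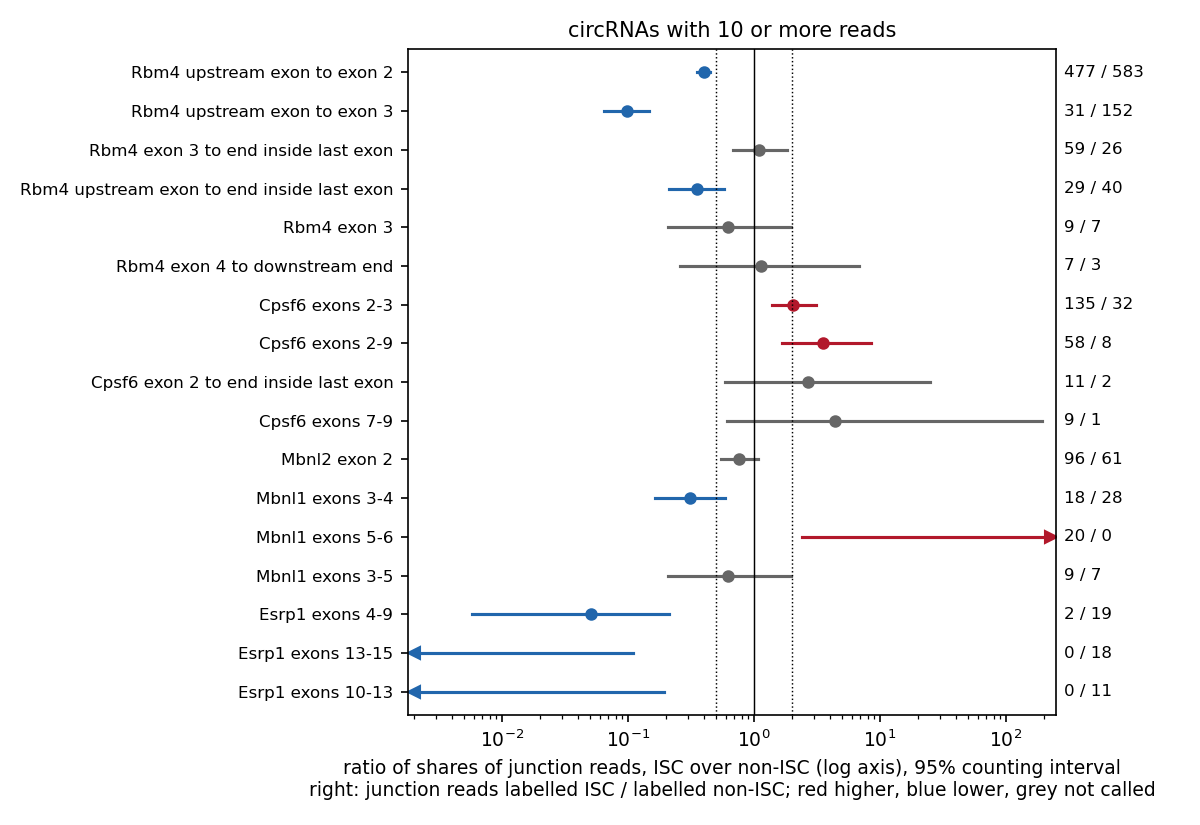
Ratio of the share of junction reads labelled ISC to that labelled non-ISC (log axis), with 95% counting intervals for the 17 circRNAs with at least 10 reads, with the reads of both libraries at the right. Red circRNAs were higher, blue ones lower and grey ones not called. Arrows mark open intervals of circRNAs that are not listed in 1 library and were counted as 0 reads there.

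At the level of single circRNAs, 17 had at least 10 reads, of which 3 were higher, 7 lower and 7 not called in the library labelled ISC. Over all 3659 circRNAs with that many reads, 55.4% were called, 32.4% higher and 23.0% lower. The median log2 ratio was -0.70 for the 17 and 0.34 for all. Of the 17, Mbnl1 exons 5 to 6 and Esrp1 exons 13 to 15 and 10 to 13 are listed in 1 library only, so their calls rest on counting a missing entry as 0. The 14 with reads in both libraries gave 2 higher and 5 lower, against 15.7% and 20.2% of all such circRNAs. With library totals the 17 split into 7 higher and 4 lower, and all circRNAs into 58.5% and 11.6%. Outside Rbm4 the ends mostly matched the annotation: both ends lay on exon ends of 1 transcript for 402 of 444 reads labelled ISC (90.5%) and 198 of 207 labelled non-ISC (95.7%). With Rbm4 the shares were 38.8% and 20.2%. The 32 circles with reads and both ends in 1 transcript held 1 to 10 exons, with a median of 3.0, and a spliced length of 190 to 1599 nt.

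Other genes of the same processes were taken from 5 lists with 138 further genes, of which 111 had circRNA reads and 55 at least 10. Of the 55, 20 were called higher there and 3 lower, against the 26.7% and 22.7% of all host genes given above, in a library whose lymphocyte markers were also higher. They had a median log2 ratio of 0.60 against 0.16 over all host genes. The summed ratio was 1.33 (1.23 to 1.44). Of the 3′ end processing genes, to which Cpsf6 belongs by function, 4 of 6 were higher and 0 lower. They were Papola, the poly(A) polymerase gene (155 reads against 22, ratio 3.43, 2.19 to 5.64), Fip1l1 (82 against 12, ratio 3.33, 1.81 to 6.71), Cpsf1 and Cpsf7. Cpsf1 had 17 reads against 0 (lower limit of the ratio 2.01) and Cpsf7 10 against 0 (lower limit 1.09). Cpsf7, a paralog of Cpsf6, stood at the minimum for a call. Wdr33 (81 against 24) and Cstf3 (46 against 14) were not called.

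Of 21 alternative splicing regulators 9 were higher and 2 lower, to be read against the same background. The SR protein gene Srsf1 had 57 reads against 1 (ratio 27.8, 4.79 to 1117), Khdrbs1 52 against 6, Celf2 48 against 6, Matr3 47 against 11 and Tial1 44 against 7. Hnrnpu (7 against 18) and Celf1 (3 against 13) were lower, so the paralogs Celf1 and Celf2 were called in opposite directions. Of 17 core splicing factors 4 were higher, a share near the background, and 1 was lower. The SR protein kinase gene Srpk2 (92 against 1), Son (41 against 7), Sf3b1 (22 against 3) and Prpf4 (20 against 2) were higher, and Prpf39 (2 against 10) was lower. Of the back-splicing factors with enough reads, Ewsr1 was higher (28 against 1), while Dhx9 (16 against 9) and Zc3h14 (41 against 14) were not called. Of 7 genes of circRNA export and turnover, 2 were higher and 0 lower. The 2 were Xpo4 (13 against 0, lower limit 1.49) and G3bp1 (10 against 0, lower limit 1.09). With library totals 43 of the 55 were higher and 0 lower, where 58.8% of all host genes were higher and 11.1% lower.

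The host genes closest to each regulator in the reads of these 2 libraries were Pias1 for Cpsf6 (240 reads against 44), Dlg5 for Esrp1 (4 against 50), Pgam5 for Mbnl1 (74 against 41) and Elf2 for Rbm4 (555 against 515). Closeness was the Euclidean distance in log2(reads + 0.5), and it was 0.0882, 0.187, 0.0833 and 0.675. Elf2 was thus not near Rbm4, which had no close neighbour. For Mbnl2 the closest entry was a FANTOM transcript, and for Qk and Rbm39 several host genes were tied.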

How the data were processed

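Per the submitters' processing notes, reads were trimmed with Trimmomatic 0.36 and checked with FastQC, and the build named is mm9. The aligner and the circRNA caller: not given in the sources used here. Per the file headers, the authors deposited for each circRNA a count, an RPM value and a count of junction reads. The junction read count was used. The deposited RPM values are the deposited counts per 1000000 reads of library totals of 52636694 and 72271995 (labelled ISC, non-ISC). Junction ends fell on GENCODE M21 exon starts for 79.4% and 81.1% of circRNAs, and at most 0.320% matched when shifted by 1 nt, so coordinates are given as GRCm38, counted from 1. Exon numbers follow the host's first-named basic coding transcript with both ends.

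A circRNA without an entry was counted as 0, also in the sums of host genes, so a gene at 0 need not have lacked reads. In the library labelled non-ISC 6122 entries had 0 junction reads. A count of 0 was set at a floor of 3 counts per library, or 19.2 and 39.3 per 1000000 junction reads, which is no confidence limit. Intervals are exact (conditional binomial for ratios, Clopper-Pearson for shares, Poisson for levels), computed with Python 3.11.15 and SciPy 1.17.1. The rule was tested on simulated Poisson counts only. These hold no spread between animals or libraries, so the simulation says nothing on such spread. Both mates of a pair may cross a junction, so intervals may be too narrow. Members and lists were chosen with earlier results of these data known. All 8 genes are named, with each circRNA of at least 10 reads, the called genes of each list (at most the 5 with most reads per direction) and the closest host gene. Genes such as Wdr33 and Rbm47 were named after their values were seen. Older symbols were matched for 2 genes. Intron motifs were not searched, as no genome was used; circle motifs were added afterwards.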

Additional observations from a re-analysis of the deposited data

How the results depend on the processing

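No paired analysis was possible because each group has 1 library, and for the same reason no replicate could be left out. Scaling and the column read decided most counts. In order higher and lower, host genes of the 8 called were 2 and 2, circRNAs 3 and 7 of 17 and other regulator genes 20 and 3 of 55. With library totals they were 5 and 1, 7 and 4, and 43 and 0, where all host genes stood at 58.8% higher and 11.1% lower and all circRNAs at 58.5% and 11.6%, so the shift was shared by all features. With the deposited count column host genes were 2 higher (Mbnl1 and Rbm39, in place of Cpsf6 and Qk) and 4 lower (Adar at 0.234, Esrp1, Mbnl2 at 0.475 and Rbm4). CircRNAs were 18 and 17 of 41, and other regulators 33 and 42 of 114. All host genes then stood at 22.2% and 53.8%, and all circRNAs at 35.5% and 48.2%. That column scaled to library totals, an alternative chosen after seeing the data, gave 5 and 1, 23 and 13 of 41, and 74 and 16 of 114. All host genes there stood at 48.0% and 33.8%, and all circRNAs at 50.8% and 41.2%. With reads halved 1 host gene was higher, and other regulators were 10 and 1 of 39. Of all host genes, 20.8% were then higher and 19.6% lower. Limited to circRNAs read in both libraries, 1 host gene was higher and other regulators called higher came to 6 of 34. All host genes stood at 14.3% higher and 20.7% lower. A minimum of 50 reads left 1 host gene higher, 3 of 7 circRNAs lower, and other regulators at 8 and 0 of 19. All host genes stood at 30.9% and 19.3% there, and 20.7% of all circRNAs were lower. No minimum gave 7 of 111 other regulators lower, against 14.3% of all host genes. The 4-fold rule left 1 and 1 host genes, 1 and 4 of 17 circRNAs, and 13 of 55 other regulators higher. All host genes stood at 19.6% and 17.2% under it, and all circRNAs at 27.2% and 17.7%. Hosts by position gave 1 host gene lower (22.7% of all) and circRNAs at 6 and 4 of 16 (32.4% and 23.0% of all). Median-ratio scaling changed no count by over 1.5 times. The summed ratio of 0.507 became 1.43 with library totals, 0.624 with median-ratio scaling, 0.747 with the count column, 3.44 with that column on library totals, 1.21 by position, 1.05 without Rbm4, 0.415 without Cpsf6 and 0.650 without the most abundant circRNA. Rbm4 turned from 0.369 to 1.04 with library totals, which move every log2 ratio up by 1.49. With the count column on library totals it was 1.48. Why these scalings differ between the libraries was not tested. Esrp1 stayed below 1 in each setting run for it, from 0.0294 to 0.135. The planned search of flanking introns was not run. Depth limits the genes with few reads, Qk and Adar among them, while Rbm39 has few reads under its own name only.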
